A study of Homo sapiens with 9 samples.

Results

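Matrix proteases cut the collagens, proteoglycans and surface proteins around a cell, and their inhibitors limit that cutting. The 52 genes described here are 16 matrix metalloproteinases (MMP), the 4 tissue inhibitors of metalloproteinases (TIMP), the membrane-anchored inhibitor RECK, 7 ADAM surface proteases, 17 secreted ADAMTS proteases, the plasminogen activators PLAU and PLAT with the receptor PLAUR, and 4 serpins. They were taken by gene symbol from a list of these families, and all 52 were found among the 60708 genes in the count files. RNA was sequenced from cells labelled MDA-MB-231, a triple-negative breast cancer cell line of basal and mesenchymal character. The libraries are labelled wild type (WT, 3 libraries) or CS16 and CS19, a pair of clones labelled SNAI1-KO (3 libraries each). SNAI1 encodes Snail, a transcriptional repressor that drives epithelial-mesenchymal transition, and the comparison asked which genes differ when it is lost. All cells were untreated and grown in DMEM with 10% FBS. The study describes CS16 and CS19 as 1 single-cell clone each, made with pooled CRISPR/Cas9 guides, homology-directed repair plasmids and puromycin selection. The pooled SNAI1-KO group of 6 libraries thus holds 2 clones. The study's methods speak of biological repeats in general, the labels do not say whether the libraries of a group came from separate cultures, and p-values measure only the spread between these libraries, which may be technical.

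MMPs, ADAMs and ADAMTSs are zinc-dependent enzymes. Several MMPs are secreted as inactive precursors, and the membrane-type enzyme MMP14, together with TIMP2, activates the gelatinase MMP2 at the cell surface. Urokinase (PLAU), bound to its receptor PLAUR, turns plasminogen into plasmin, which degrades fibrin and can activate other proteases, while serpins block serine proteases by trapping them.

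SNAI1, the targeted gene, had 16, 38 and 21 counts in the WT libraries, 26, 40 and 49 in the CS16 libraries and 57, 94 and 94 in the CS19 libraries. Its transcript was thus not lower in the libraries labelled SNAI1-KO, with a log2 fold change against WT of 0.89 ± 0.42 (SE; edgeR's quasi-likelihood test, Benjamini-Hochberg adjusted p = 0.0838). In CS16 the log2 fold change was 0.39 ± 0.43 (adjusted p = 0.474), while in CS19 SNAI1 was higher than in WT by 1.32 ± 0.42 (adjusted p = 0.031), and CS16 lay below CS19 by -0.92 ± 0.24 (adjusted p = 0.0106). Counts over the whole gene do not show whether the transcript was edited. The study itself reports lower SNAI1 mRNA at each exon by RT-qPCR and no detectable SNAI1 protein in both clones. It also reports deletions at the SNAI1 locus in the aligned RNA reads. The RT-qPCR result and the counts given here differ, and the cause was not tested. Libraries held 19527195 to 28627777 counted read pairs. By these unscaled totals, 3 counts, the limit that a count of 0 allows, stood for 0.105 to 0.154 per 1e6 read pairs, covering counting error only. The CPM values in the text (counts per 1e6 counted read pairs) use library sizes scaled by TMM factors of 0.888 to 1.13, which shifts that limit. WT-2 stood apart from the other WT libraries, the chi-square divided by its degrees of freedom being 187.9 against WT-1, 230.2 against WT-3 and 14.61 between WT-1 and WT-3. The cell line label was checked against marker genes. CDKN2A, CDKN2B and MTAP, the 9p21 genes that MDA-MB-231 is known to lack, had 0 counts in every WT library, whereas each of the 6 libraries labelled SNAI1-KO held 164 to 182 CPM of them in sum. CD44, VIM, EGFR, CAV1 and AXL, typical of MDA-MB-231, summed to 4564.0 to 5160.3 CPM in WT and to only 334 to 390 CPM in those 6 libraries, where CD44 had at most 2 counts and AXL 2 to 12. An embryonic kidney list of 8 genes summed to 59.2 to 82.6 CPM in WT and to 134 to 155 CPM in the other 6 libraries, with PAX2 and SALL1 at 0 counts in all WT libraries. A mammary luminal list of 8 genes summed to 1456.6 to 2136.0 CPM in WT, mostly from KRT8, KRT18 and KRT19, and to 56.4 to 98.6 CPM in the clones, while its member FOXA1 went the other way, from 0 to 0.103 CPM in WT to 2.86 to 4.1 in CS16 and 15.3 to 18.2 in CS19. Fibroblast markers (6 genes) summed to 58.4 to 127 CPM in WT, to 62.1 to 66.6 CPM in CS16, within the WT range, and to 10.2 to 12.5 CPM in CS19. Different genes made up the WT and CS16 sums. COL1A2 had 44.7, 80.5 and 40.9 CPM in WT and 0 counts in both clones. COL3A1 had 0.395, 0.628 and 0.77 CPM in WT and 55.1, 59.3 and 55.1 CPM in CS16. Haematopoietic markers (6 genes) summed to 12.4 to 19.1 CPM in WT against 0.589 to 0.954 in the clones, and endothelial markers (4 genes) to 12.3 to 14.3 against 0.491 to 1.77. Apart from the fibroblast sum in CS16, these marker sums differed between WT and both clones, as many members below did, and the SNAI1 genotype and a difference of cell origin cannot be told apart here. In bulk RNA, fewer cells of a type and less RNA per cell also cannot be told apart.

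Most of the expressed matrix protease genes were lower in the libraries labelled SNAI1-KO. MMP14, PLAU, ADAMTS12 and ADAMTS16 fell to near 0, all 4 TIMPs fell, and MMP2 with a group of ADAMTS genes rose. A gene was called when its log2 fold change reached 2 in either direction at an adjusted p below 0.05. Of the 42 members with enough counts to be tested, 8 were called higher and 21 lower, against 26.9% of all 19631 genes tested in that comparison (12.6% higher and 14.3% lower). The median log2 fold change of the 42 tested members was -1.79, compared with -0.004 over all genes tested. By adjusted p alone, 10 members were higher and 24 lower, beside 63.7% of all genes tested. The libraries labelled SNAI1-KO and the WT libraries did not overlap for 58.3% of all genes tested. Non-overlap between these groups in the text below is to be read against that share. It does not cover non-overlap between CS16 and CS19, for which no share over all genes is given. Non-overlap of the clones below is thus only a description of the values. Between the clones, 27.4% of all genes tested had an adjusted p below 0.05.

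Promoter sequences are shown for MMP14, ADAM8 and ADAMTS12, of the 12 members called lowest, and for ADAMTS20, one of the genes near 0 in WT that rose, since Snail binds the E-box CAGGTG and AP-1, a regulator of many protease genes, binds TGANTCA. RefSeq (GRCh38.p14) gave a promoter for 32 of the 52 members. Each sequence holds the 250 bases before the RefSeq start site, 5′ to 3′ on the gene's strand, and capitals mark every match to either motif on either strand. The windows are MMP14 at chr14:22836335-22836584 (plus strand), ADAM8 at chr10:133276869-133277118 (minus strand), ADAMTS12 at chr5:33891991-33892240 (minus strand) and ADAMTS20 at chr12:43552204-43552453 (minus strand).
MMP14: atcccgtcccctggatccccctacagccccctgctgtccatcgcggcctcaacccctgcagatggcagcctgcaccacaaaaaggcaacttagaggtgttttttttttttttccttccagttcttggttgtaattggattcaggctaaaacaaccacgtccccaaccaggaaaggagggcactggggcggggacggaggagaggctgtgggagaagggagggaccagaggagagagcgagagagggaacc
ADAM8: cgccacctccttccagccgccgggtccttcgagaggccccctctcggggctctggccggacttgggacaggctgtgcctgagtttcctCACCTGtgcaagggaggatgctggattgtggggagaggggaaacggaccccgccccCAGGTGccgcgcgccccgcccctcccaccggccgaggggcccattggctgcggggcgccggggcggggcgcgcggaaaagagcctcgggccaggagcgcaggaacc
ADAMTS12: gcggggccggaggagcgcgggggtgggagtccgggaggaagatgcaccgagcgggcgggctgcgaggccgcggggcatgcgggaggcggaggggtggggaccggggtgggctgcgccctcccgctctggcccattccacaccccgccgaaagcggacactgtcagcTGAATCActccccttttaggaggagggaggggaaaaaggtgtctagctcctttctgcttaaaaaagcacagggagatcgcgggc
ADAMTS20: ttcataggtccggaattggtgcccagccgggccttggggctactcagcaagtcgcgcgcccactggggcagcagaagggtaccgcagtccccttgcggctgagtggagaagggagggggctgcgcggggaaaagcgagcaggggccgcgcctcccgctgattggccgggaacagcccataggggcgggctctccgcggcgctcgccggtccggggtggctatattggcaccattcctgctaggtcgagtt

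The ADAM8 window held CAGGTG at positions -162 and -106 (first base of the match, counted from the start site), once on each strand. The ADAMTS12 window held TGANTCA at position -84, and neither motif was matched in the MMP14 or ADAMTS20 windows. The gene models of the count files began 29 bases before the RefSeq start site for ADAMTS12 and 25 bases before it for MMP14. Over all 34943 RefSeq promoters, 17.5% held CAGGTG and 6.59% held TGANTCA. Among the 32 members, CAGGTG was matched in 5 (ADAM19, ADAM8, ADAMTS17, MMP15 and SERPINB5, of which ADAM19 and ADAM8 were called lower) and TGANTCA in 6 (ADAMTS12, MMP10, MMP7, PLAUR, SERPINB2 and SERPINB5, of which ADAMTS12 and PLAUR were called lower). The motifs share no overlapping match in the windows shown, and a match is a description of letters and not of binding.

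MMP14, the membrane-anchored collagenase that cuts fibrillar collagen and activates MMP2, stood at 484, 966 and 532 CPM in the WT libraries. The CS16 libraries held 1.03, 0.811 and 0.438 CPM and the CS19 libraries 0.636, 0.737 and 1.01 CPM. WT-2 was the highest WT library, and every WT library lay far above the other 6. The log2 fold change was -9.72 ± 0.31 (adjusted p = 8.24e-10). MMP24, another membrane-type enzyme, was also called lower at -3.60, with 22.1% of its exon length under genes of the opposite strand. Reads of such overlapping stretches could not be assigned to one gene, since the counting did not use strand. MMP16 was higher without reaching the cut-off, at a mean of 9.24 ± 1.83 CPM (SD, n = 3) in WT and 27 ± 2.28 (SD, n = 6) in the libraries labelled SNAI1-KO, a log2 fold change of 1.55 (adjusted p = 1.14e-05). MMP15, MMP17 and MMP25 did not pass the test, with log2 fold changes of 0.26, 0.19 and 0.36, and 30.6% of the MMP25 exon length lay under MMP25-AS1.

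MMP2, the gelatinase that degrades basement membrane collagen, moved in the direction opposite to its activator. It was at 0.296, 0.114 and 0.205 CPM in WT, at 8.19, 5.25 and 7.6 CPM in CS16 and at 3.64, 3.94 and 3.63 CPM in CS19. The WT libraries were all lowest and the CS16 libraries all highest, so that the 3 groups did not overlap. MMP2 rose by a log2 fold change of 4.65 ± 0.48 (adjusted p = 5.48e-06) and was higher in CS16 than in CS19 by 0.91 ± 0.17 (adjusted p = 0.00169). The other gelatinase, MMP9, had at most 8 counts in any library and was not tested.

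MMP1, the interstitial collagenase, had 147, 109 and 180 counts in WT, or 7.25, 6.22 and 9.24 CPM, and 0 counts in all 6 libraries labelled SNAI1-KO. Against a floor of 3 counts per library it was at least 58.7-fold lower (adjusted p = 3.11e-06), and 8.14% of its exon length lay under WTAPP1 on the opposite strand. MMP1 lies in a cluster of 9 MMP genes on chromosome 11 (chr11:102520508-102955732 in GRCh38.p13, the build of the count files). Among these 9 genes, MMP1 alone passed 3 counts in a WT library and MMP12 alone in a library labelled SNAI1-KO, with at most 4 counts. MMP13, MMP3, MMP10 and MMP7, the members of the cluster other than MMP1, had at most 3 counts in any library and their expression was not detectable above that limit.

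MMP19, a secreted MMP that cuts basement membrane proteins, had 6.02, 5.2 and 5.08 CPM in WT. The libraries labelled SNAI1-KO held 3 counts in all, against 312 in WT, and the ratio of their levels to WT was 0.00387 (exact 95% counting interval 0.000795 to 0.0114, adjusted p = 2.6e-08), with 17.4% of the exon length under TMEM198B on the opposite strand. MMP11, a stromelysin, was lower by less than the cut-off, at 2.97 ± 0.445 CPM (SD, n = 3) and 1.21 ± 0.266 (SD, n = 6), a log2 fold change of -1.29 (adjusted p = 0.000667). MMP28 was not tested, with 0.493, 0.857 and 0.513 CPM in WT and at most 0.143 CPM elsewhere. Of the 16 MMPs, 10 were tested, 1 was called higher and 4 lower, beside 12.6% and 14.3% of all genes tested.

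**Figure D1:**
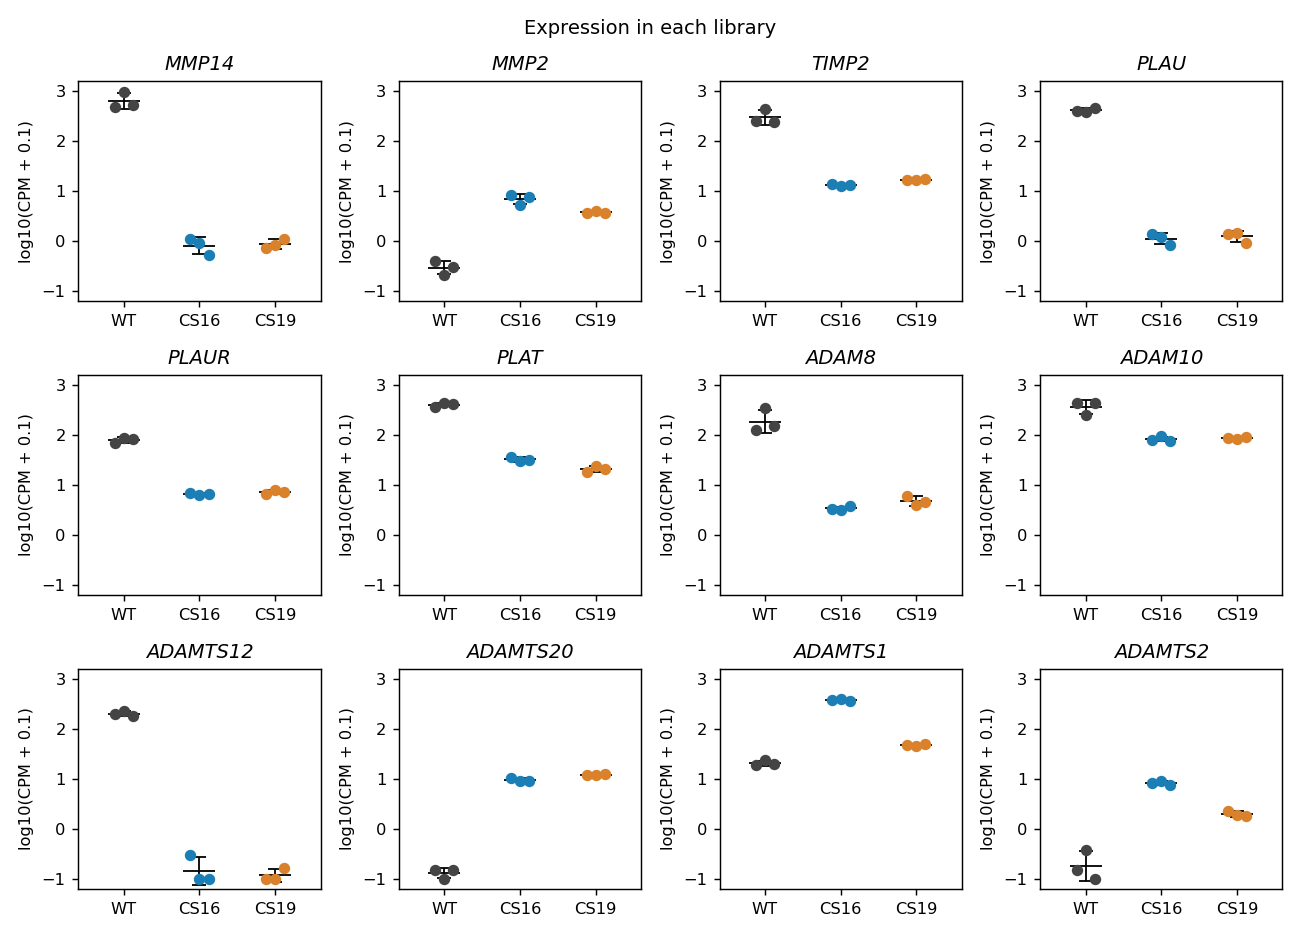
Expression of 12 members in each library as log10(CPM + 0.1), where each point is 1 library, the horizontal line is the mean of a group on this scale and the bar its SD (n = 3). MMP14, PLAU and ADAMTS12 are high in WT only, MMP2, ADAMTS20 and ADAMTS2 are low in WT only, and ADAMTS1 and ADAMTS2 are higher in CS16 than in CS19.

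All 4 TIMPs, which block MMPs and some ADAMs by binding the active site, were called lower, beside 14.3% of all genes tested. RECK and the only 2 serpins with enough counts for a test were not called. TIMP2, which inhibits MMPs and also takes part in activating MMP2, had 249, 447 and 239 CPM in WT, 14, 12.4 and 12.9 in CS16 and 16.5, 16.9 and 17.5 in CS19. It fell by 4.37 ± 0.21 on the log2 scale (adjusted p = 1.17e-08), and CS16 was slightly lower than CS19, by a log2 fold change of -0.38 ± 0.09 (adjusted p = 0.00719), with no overlap between the clones.

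TIMP3, the TIMP bound to the extracellular matrix, had 781, 814 and 784 CPM in WT, 70.5, 73.1 and 68.4 in CS16 and 54.3, 53.9 and 51.7 in CS19. It was lower by a log2 fold change of -3.68 ± 0.15 (adjusted p = 3.11e-09), with CS16 above CS19 by 0.40 ± 0.07 (adjusted p = 0.000537). TIMP1, a secreted inhibitor, had 214, 280 and 253 CPM in WT, 26.7, 24.9 and 23.9 in CS16 and 30.6, 36.9 and 33.3 in CS19. Its log2 fold change was -3.08 ± 0.16 (adjusted p = 2.24e-08), and CS16 lay below CS19 by -0.42 ± 0.09 (adjusted p = 0.00255). The clones thus differed in opposite directions for TIMP3 and for TIMP1 and TIMP2, by much less than either differed from WT. TIMP4 was lower at -3.59 ± 0.32, from a WT mean of only 4.09 CPM and with 14.2% of its exon length under SYN2.

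RECK, the membrane-anchored inhibitor of MMP14, MMP2 and MMP9, did not follow the TIMPs. It stood at 13.4, 11 and 14.9 CPM in WT, at 13.7, 15.3 and 13.4 in CS16 and at 16, 13.5 and 17.6 in CS19. The 3 groups overlapped, and the log2 fold change of 0.19 ± 0.17 did not pass the test (adjusted p = 0.345).

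**Figure D2:**
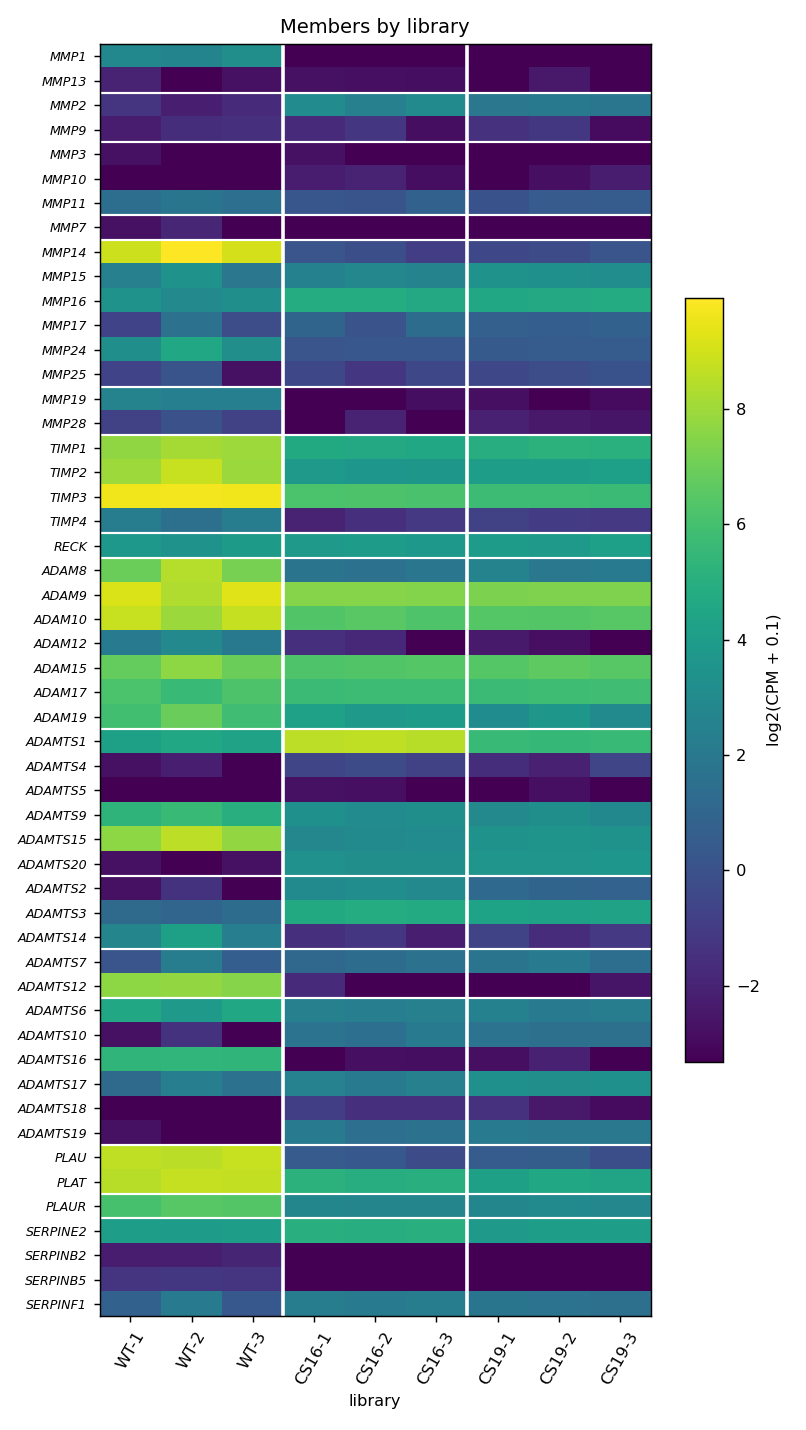
Level of each of the 52 members (rows, grouped by role with white lines between roles) in each of the 9 libraries (columns), coloured by log2(CPM + 0.1). TIMP1, TIMP2, TIMP3, PLAU, PLAT and PLAUR are high in the 3 WT libraries, while ADAMTS20, ADAMTS10 and ADAMTS19 are near the bottom of the scale there.

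Both plasminogen activators and the urokinase receptor were called lower. PLAU had 401, 378 and 453 CPM in WT, 1.27, 1.14 and 0.756 in CS16 and 1.32, 1.39 and 0.818 in CS19. Every WT library lay far above the others, with a log2 fold change of -8.53 ± 0.21 (adjusted p = 1.61e-10). C10orf55 covers 31% of the PLAU exon length on the opposite strand, and reads there could belong to either gene. PLAT, the tissue-type activator best known for dissolving clots, had 366, 425 and 419 CPM in WT, 36.2, 30 and 31 in CS16 and 18.2, 23.5 and 20.8 in CS19. PLAT was lower by a log2 fold change of -3.92 ± 0.21 (adjusted p = 2.12e-08), and CS16 exceeded CS19 by 0.63 ± 0.10 (adjusted p = 0.000529). PLAUR, the urokinase receptor, was at 67.8, 87.5 and 82.3 CPM in WT and at 6.3 to 7.8 CPM with a median of 6.68 in the 6 libraries labelled SNAI1-KO. The groups did not overlap, and its log2 fold change was -3.54 ± 0.14 (adjusted p = 2.23e-09).

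Among the serpins, none of the 2 tested members was called. SERPINE2, an inhibitor of thrombin and of plasminogen activators, had 16.4, 15.8 and 17.3 CPM in WT, 32.4, 30.4 and 32.6 in CS16 and 13.8, 16.5 and 16.3 in CS19. Only the CS16 libraries stood apart, with a log2 fold change of 0.98 ± 0.17 for CS16 against WT (adjusted p = 0.00185), -0.04 ± 0.18 for CS19 against WT (adjusted p = 0.851) and 1.03 ± 0.09 for CS16 against CS19 (adjusted p = 2.72e-06). SERPINF1, or PEDF, a serpin without protease inhibition that limits vessel growth, had 1.63, 4.11 and 1.13 CPM in WT, 4.61, 4.44 and 4.65 in CS16 and 3.41, 3.21 and 2.81 in CS19. WT-2 lay between the clones, below every CS16 library and above every CS19 library, the pooled difference from WT did not pass the test (log2 fold change 0.76, adjusted p = 0.1), and CS16 exceeded CS19 by 0.54 ± 0.16 (adjusted p = 0.0229). SERPINB5, or maspin, had 18 counts over the WT libraries and 0 in the others, at least 2.45-fold lower with no test. SERPINB2, the urokinase inhibitor PAI-2, had at most 3 counts in any library.

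Of the 7 ADAMs, which shed growth factors and receptors from the cell surface, 4 were called lower and 0 higher, beside 14.3% and 12.6% of all genes tested. ADAM8 had 124, 342 and 149 CPM in WT, 3.28, 3.05 and 3.62 in CS16 and 6.04, 3.9 and 4.42 in CS19. WT-2 was highest, no library of either clone reached the WT range, and the log2 fold change was -5.66 ± 0.32 (adjusted p = 4.11e-08). ADAM12 was at 4.24, 7.42 and 4 CPM in WT and at 0 to 0.245 CPM with a median of 0.0671 in the libraries labelled SNAI1-KO, a log2 fold change of -5.82 ± 0.59 (adjusted p = 4.81e-06).

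ADAM19 had 1196, 2066 and 1128 counts in WT, 381, 293 and 406 in CS16 and 190, 295 and 245 in CS19. It was lower by -2.59 ± 0.30 (adjusted p = 1.42e-05), and CS16 exceeded CS19 by 0.73 ± 0.16 (adjusted p = 0.00407). Without WT-2, ADAM19 was no longer called in CS16 against WT (log2 fold change -1.85). ADAM10, the alpha-secretase that also cuts Notch, was at 373 ± 109 CPM (SD, n = 3) in WT and 84.8 ± 6.31 (SD, n = 6) in the libraries labelled SNAI1-KO. Its log2 fold change of -2.14 ± 0.17 (adjusted p = 7.51e-07) lay close to the cut-off, and the call was lost in the pooled comparison without WT-3 and in CS19 against WT without WT-1 or without WT-3.

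The other 3 ADAMs were not called. ADAM9 had 582, 319 and 613 CPM in WT, 181, 185 and 179 in CS16 and 158, 166 and 163 in CS19, lower by a log2 fold change of -1.55 ± 0.18 (adjusted p = 1.78e-05). ADAM15 had 109, 200 and 125 CPM in WT, 78.2, 79.1 and 86.2 in CS16 and 86.6, 98.3 and 87.8 in CS19, lower by -0.75 ± 0.18 (adjusted p = 0.00337). Both passed the test without reaching the cut-off, and WT-2 was the lowest WT library for ADAM9 and the highest for ADAM15. ADAM17, the TNF-alpha convertase, had 71.8, 50.9 and 73.5 CPM in WT, 51.3, 54.5 and 53.6 in CS16 and 51.8, 54.9 and 57.3 in CS19. The groups overlapped because of WT-2, and the log2 fold change was -0.28 ± 0.14 (adjusted p = 0.103).

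The ADAMTS genes moved both ways, with 7 of 15 tested members called higher and 6 called lower, beside 12.6% and 14.3% of all genes tested. ADAMTS12, a protease of cartilage oligomeric matrix protein, had the lowest fitted log2 fold change of the tested members. It had 200, 221 and 182 CPM in WT, with 4050, 3876 and 3555 counts, and 6 counts in all over the 6 libraries labelled SNAI1-KO, of which 4 were in CS16-1 and 2 in CS19-3. The log2 fold change was -12.04 ± 0.45 (adjusted p = 1.69e-09), and the promoter with the TGANTCA match printed above belongs to this gene. ADAMTS16 followed the same pattern, with 39.8, 41.7 and 40.5 CPM in WT and 0 to 0.13 CPM with a median of 0.0426 elsewhere (log2 fold change -9.73 ± 0.38, adjusted p = 2.08e-09).

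ADAMTS15, a proteoglycanase, had 204, 386 and 221 CPM in WT, 6.81, 7.78 and 8.23 in CS16 and 10.6, 11.4 and 10.6 in CS19. It was lower by -4.87 ± 0.24 (adjusted p = 1.08e-08), and CS16 lay below CS19 by -0.52 ± 0.11 (adjusted p = 0.00384). ADAMTS14, which removes the N-terminal propeptide of procollagen, had 6.36, 18 and 4.98 CPM in WT and 0.119 to 0.545 CPM with a median of 0.289 in the libraries labelled SNAI1-KO (log2 fold change -4.99 ± 0.46, adjusted p = 2.32e-06). The groups did not overlap for either gene. ADAMTS9 and ADAMTS6 were called lower near the cut-off, at -2.21 and -2.02. The ADAMTS9 call in CS16 was lost without WT-2 or without CS16-2. ADAMTS6 was called in CS19 against WT and not in CS16 against WT (-2.03 and -1.95), and its pooled call was lost without WT-1, WT-3, CS19-2 or CS19-3.

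ADAMTS20, whose mouse counterpart is needed for the spread of melanoblasts, rose from near 0. It had 1, 0 and 1 counts in WT, 10.4, 9.11 and 9.07 CPM in CS16 and 11.7, 11.7 and 12.2 CPM in CS19. With 2 counts in WT, the ratio to WT was 309 (exact 95% counting interval 85.4 to 2554.0, adjusted p = 1.49e-08), and CS16 lay below CS19 by a log2 fold change of -0.33 ± 0.10 (adjusted p = 0.0324). ADAMTS19 had 1, 0 and 0 counts in WT, 4.07, 2.77 and 3.02 CPM in CS16 and 4.36, 3.86 and 3.89 CPM in CS19, a ratio of 210 (interval 37.5 to 8306.6, adjusted p = 3.48e-07). Both genes were at the limit of detection in WT and present in all 6 other libraries, and their intervals overlap, so that neither ranks above the other.

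ADAMTS10, which binds fibrillin microfibrils, had 0.0493, 0.286 and 0 CPM in WT, 3.23, 2.72 and 4.18 in CS16 and 3.23, 2.86 and 2.85 in CS19, a log2 fold change of 4.83 ± 0.57 (adjusted p = 1.74e-05). ADAMTS4, an aggrecanase, stayed low throughout. It had 1, 2 and 0 counts in WT, 12, 15 and 13 in CS16 and 5, 3 and 18 in CS19, a ratio of 8.86 (interval 2.9 to 44.1, adjusted p = 0.00651), and it had too few counts for a test in CS19 alone. ADAMTS17 had 2.27, 5.02 and 2.93 CPM in WT, 5.78, 4.34 and 5.33 in CS16 and 9.86, 9.1 and 9.82 in CS19, so that WT-2 overlapped CS16. It passed the test under the cut-off (log2 fold change 1.12 ± 0.35, adjusted p = 0.016), with CS16 below CS19 by -0.90 ± 0.13 (adjusted p = 0.000238).

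ADAMTS2 and ADAMTS3 remove the N-terminal propeptide of procollagens, as ADAMTS14 does, and rose where ADAMTS14 fell. ADAMTS3 had 2.32, 1.88 and 2.46 CPM in WT, 26, 29 and 27.4 in CS16 and 20.5, 19.2 and 19.8 in CS19. The 3 groups did not overlap, with a log2 fold change of 3.41 ± 0.23 against WT (adjusted p = 1.53e-07) and of 0.46 ± 0.08 for CS16 against CS19 (adjusted p = 0.00101). ADAMTS2 had 0.0493, 0.286 and 0 CPM in WT, 8.09, 8.92 and 7.36 in CS16 and 2.18, 1.82 and 1.7 in CS19. It rose by 5.49 ± 1.00 (adjusted p = 0.000504) and was higher in CS16 than in CS19 by 2.09 ± 0.16 (adjusted p = 1.11e-06).

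ADAMTS1, a proteoglycanase that also limits blood vessel growth, separated the clones most. It had 18.6, 23.2 and 19.5 CPM in WT, 383, 398 and 355 in CS16 and 47.6, 45.3 and 50.5 in CS19. Both clones lay above WT, and no CS19 library came near the CS16 range. The log2 fold change against WT was 4.24 ± 0.19 in CS16 (adjusted p = 6.89e-06) and 1.27 ± 0.18 in CS19 (adjusted p = 0.000797, under the cut-off), and CS16 exceeded CS19 by 2.98 ± 0.07 (adjusted p = 1.08e-10). In the pooled comparison it was 3.38 ± 0.87 (adjusted p = 0.00523), where the spread includes the gap between the clones. The fibroblast marker sum also differed between the clones, at 62.1 to 66.6 CPM in CS16 and 10.2 to 12.5 in CS19. Most of that gap was COL3A1, at 55.1 to 59.3 and 5.72 to 7.14 CPM. LUM went the same way, at 2.27 to 3.19 and 0.217 to 0.295 CPM. COL1A1 was alike, at 3.77 to 4.48 and 3.83 to 5.09 CPM, and COL1A2 had 0 counts in both clones. PDGFRB was at most 0.52 CPM and DCN at most 0.143 CPM in the clones. Any part of these markers in the ADAMTS1, ADAMTS2 and ADAMTS3 differences was not tested. ADAMTS7 did not pass the test (0.27, adjusted p = 0.604). ADAMTS18 had 0 counts in WT and at most 9 elsewhere, at least 1.38-fold higher with no test, and ADAMTS5 had at most 1 count in any library.

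Each clone was also compared with WT on its own. The comparisons share the 3 WT libraries, and likeness between them is not independent. In CS16, 8 of 42 tested members were called higher and 20 lower, against 27.1% of all genes tested, and in CS19 6 of 41 were called higher and 21 lower, against 26.4%. Of the 41 members tested in both, 26 were called in the same direction in both clones (6 higher and 20 lower), ADAMTS1 was called in CS16 alone, ADAMTS6 in CS19 alone and 0 in opposite directions. The share of all genes called alike in both clones was not worked out. This count thus has no baseline and is not a result about the members. CS16 was compared directly with CS19 for 35 members. ADAMTS1 and ADAMTS2 were called higher in CS16 and 0 members lower, against 1.13% of all genes tested. By adjusted p alone, 9 members were higher and 6 lower in CS16, beside 27.4% of all genes tested. MMP15 was among these, with 5.33, 11.1 and 3.7 CPM in WT, 5.44, 6.92 and 5.89 in CS16 and 11.2, 9.88 and 8.84 in CS19, and CS16 lay below CS19 by a log2 fold change of -0.71 ± 0.14 (adjusted p = 0.0016).

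**Figure D3:**
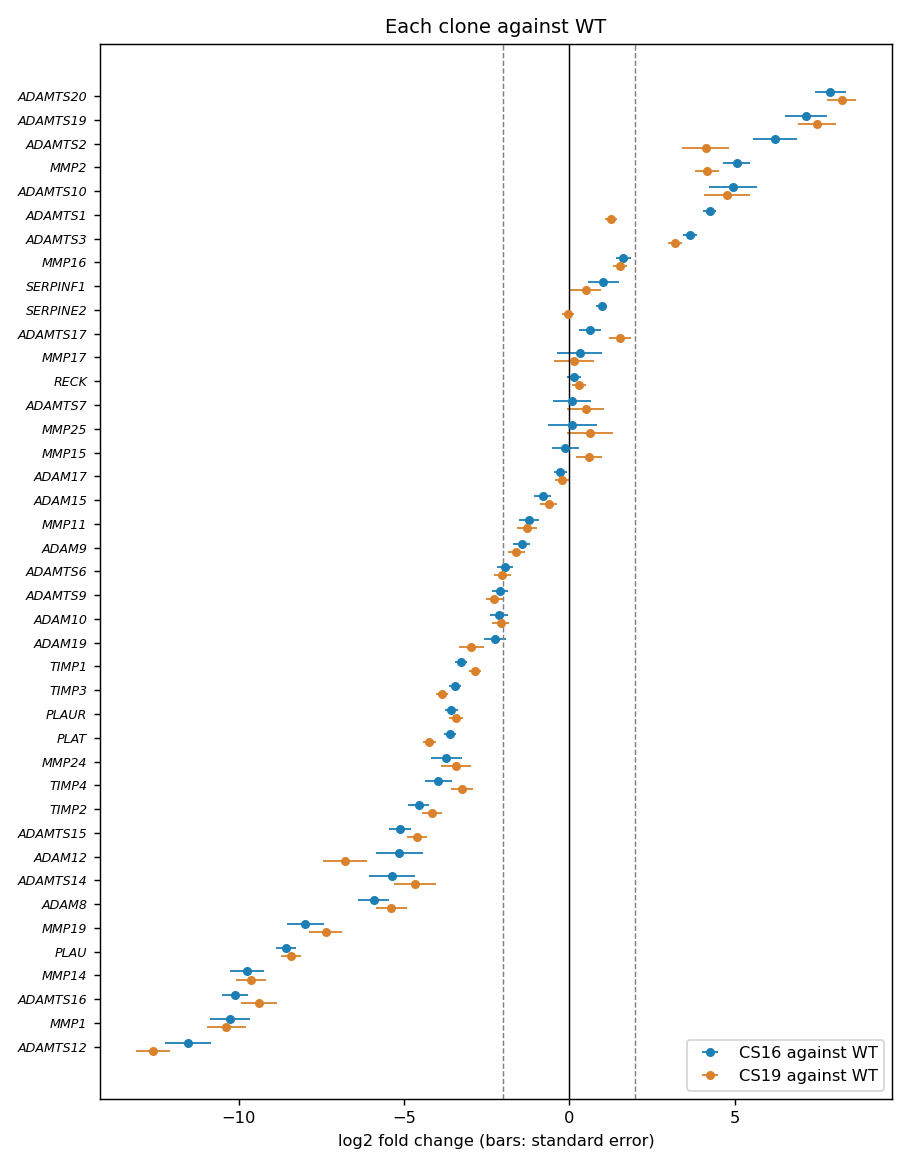
Log2 fold change of each member tested in both clones, for CS16 against WT and CS19 against WT (points, with bars for the standard error), ordered by the CS16 value, with dashed lines at the cut-off of 2 in either direction. The clones lie close to each other for most genes, and ADAMTS1 is at 4.24 in CS16 and 1.27 in CS19.

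Levels were also compared between genes per exon length, as TPM (transcripts per 1e6, from counts divided by exon length). In WT the highest members were TIMP3 at 556 ± 75 TPM (SD, n = 3), TIMP1 at 554 ± 99, MMP14 at 466 ± 220 and PLAU at 445 ± 24, and none of these 4 was separate from its neighbour in that order, while PLAU was separate from TIMP2 at 181 ± 81.9. CS16 was led by ADAMTS1 at 162 ± 20.2 TPM, 33.6% of the summed level of all members, ahead of TIMP1 at 54.5 ± 9.44 and with no overlap. CS19 was led by TIMP1 at 70.8 ± 11.7 TPM, separate from ADAM15 at 42.1 ± 6.64. At 1 TPM or more in every library, 20 members were present in both WT and the libraries labelled SNAI1-KO, 11 in WT alone and 6 in the libraries labelled SNAI1-KO alone. The 6 were ADAMTS10, ADAMTS17, ADAMTS19, ADAMTS20, ADAMTS3 and MMP2.

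Summed over a family, the level of all members was 3196.9 ± 689 TPM (SD, n = 3) in WT, 481 ± 63.3 in CS16 and 329 ± 38.8 in CS19. The MMPs summed to 502 ± 232 TPM in WT, 20.7 ± 3.42 in CS16 and 20.4 ± 2.03 in CS19, and without MMP14 to 36 ± 12.2, 20.2 ± 3.26 and 19.9 ± 2.08. The TIMPs summed to between 1081.1 and 1557.9 TPM in WT, 96.8 and 128 in CS16 and 102 and 134 in CS19. MMP14 thus made up most of the MMP level in WT, and the TIMP sum stayed above the MMP sum in all groups. ADAMTS members summed to 275 ± 89.7 TPM in WT, 196 ± 24.5 in CS16 and 52.5 ± 4.63 in CS19, and without ADAMTS1 to 266 ± 87.9, 34.8 ± 4.71 and 32.7 ± 3.7. The plasminogen activators summed to 612 ± 34.8 TPM in WT, 14.3 ± 3.33 in CS16 and 9.4 ± 1.88 in CS19. ADAM sums lay between 349 and 539 TPM in WT, 97.8 and 123 in CS16 and 96.1 and 123 in CS19, and the serpins summed to 8.88 ± 2.26, 15.9 ± 2.47 and 8.48 ± 1.07. No test was made of these sums.

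A wider list of 74 genes, holding other MMP, ADAM and serpin genes, further proteases and inhibitors and some receptors or cofactors, was read beside the members. Of 52 tested in the libraries labelled SNAI1-KO against WT, 8 were called higher and 28 lower, with a median log2 fold change of -2.40, against 12.6% higher, 14.3% lower and a median of -0.004 over all genes tested. Of other protease inhibitors, 11 of 15 tested were called lower and 1 higher, beside the same 14.3% and 12.6% of all genes. The cystatins CST1 and CST6, inhibitors of cathepsins, had 0 counts in all 6 libraries labelled SNAI1-KO and were at least 864-fold and at least 110-fold lower, against 6417 counts over the WT libraries for CST1 and 10.9, 18.4 and 13.1 CPM for CST6. CST4 had 41.9, 35.4 and 47.6 CPM in WT and 1 count elsewhere, a ratio of 0.000168 (exact 95% counting interval 4.25e-06 to 0.000937). The 3 highest were ADAM23, an ADAM without protease activity (0 to 0.114 CPM in WT, 29.6 to 36.6 elsewhere, log2 fold change 8.80), TLL1, a relative of BMP1 (1 count in WT and 338 elsewhere, ratio 136, interval 24.3 to 5394.5), and PCSK6, a proprotein convertase (0.4 to 0.74 CPM in WT and 44.2 to 55.5 elsewhere, log2 fold change 6.60). ADAMTS-like genes were called lower in 5 of 6 and higher in 1, cathepsins lower in 4 of 9 and higher in 1, serine proteases and convertases lower in 4 of 8 and higher in 2, other metzincins lower in 2 of 8 and higher in 3, and receptors or cofactors lower in 2 of 6 and higher in 0.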

How the data were processed

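Total RNA was depleted of ribosomal RNA and made into stranded paired-end libraries. The authors trimmed reads with Trimmomatic 0.36, aligned them with STAR 2.7.2b to GRCh38.p13 and counted them per gene with featureCounts (Subread 2.0.0), keeping properly paired reads of mapping quality 30 or more and not using strand. The deposited values are raw counts per gene and library, with no normalization. Symbols were matched for 60463 of 60708 gene IDs (99.60%). Genes were filtered with filterByExpr in each comparison, scaled by TMM and tested with edgeR 4.0.16 (quasi-likelihood F test, two-sided, Benjamini-Hochberg adjustment over all genes tested), without a replicate block. CPM use TMM-scaled library sizes, and TPM use the summed exon length of each gene. Exon overlaps were found with bedtools 2.31.1. The tests were run on simulated data first. Alternatives were DESeq2 1.42.0, other scalings, filters and cut-offs, the replicate block and leaving out each library. Counting intervals and floors (3 counts) cover counting error only, since reads had no molecular identifiers. Members and lists were chosen with earlier results of these data known. Named genes were the 12 members called highest and the 12 called lowest (8 were called higher), every member with an adjusted p below 0.05 between the clones, the 5 uncalled members of highest TPM, and the 3 highest and lowest related genes; every other member is given by its range, count or fold change.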

Additional observations from a re-analysis of the deposited data

Results flagged for a closer look

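In the 6 libraries labelled SNAI1-KO, 38 named genes were checked for a library far from the others, and chance alone would mark about 1 gene in 20. ADAMTS10 was marked for CS16-3, at 4.18 CPM against 2.72 to 3.23 CPM in the other libraries of the clones. ADAMTS12 was marked for CS16-1, at 0.196 CPM or 4 counts, close to the limit that a count of 0 allows. The clones CS16 and CS19 differed in 15 members at an adjusted p below 0.05 (edgeR's quasi-likelihood test of CS16 against CS19). CS16 was higher for ADAMTS1 (log2 fold change 2.98), ADAMTS2 (2.09), SERPINE2 (1.03), MMP2 (0.91), ADAM19 (0.73), PLAT (0.63), SERPINF1 (0.54), ADAMTS3 (0.46) and TIMP3 (0.40). It was lower for ADAMTS17 (-0.90), MMP15 (-0.71), ADAMTS15 (-0.52), TIMP1 (-0.42), TIMP2 (-0.38) and ADAMTS20 (-0.33). The clones are 1 single-cell clone each, and the cause of these differences was not tested.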

How the results depend on the processing

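Under DESeq2, RLE scaling and without the 100 genes of highest mean CPM, the members called were the same in all 4 comparisons. Over all genes, the cut-offs moved the counts most. With no fold-change cut-off, 6099 genes were higher and 6407 lower against WT in the pooled comparison, 5027 and 5315 in CS16, 4980 and 5034 in CS19, and 2581 and 2233 between the clones, where 9 members were higher and 6 lower. With the cut-off at 1 the counts were 4386 and 4865, 4008 and 4559, 4002 and 4307, and 325 and 508. With no filter on low counts, 5002, 4316 and 4172 genes were lower in the pooled, CS16 and CS19 comparisons, and 195 were higher and 157 lower between the clones. Leaving out 1 library gave 20 to 21 members lower and 8 higher in the pooled comparison, 19 to 21 and 8 in CS16, 19 to 22 and 6 in CS19, and 0 and 2 between the clones. Over all genes it gave 2369 to 2648 higher and 2619 to 3315 lower in the pooled comparison, 2220 to 2449 and 2734 to 3374 in CS16, 2326 to 2582 and 2585 to 3229 in CS19, and 121 to 154 and 90 to 123 between the clones. Same-numbered libraries had correlations of their deviations from -0.315 to 0.28, so the numbers do not pair them. With the replicate block, 28 of the 29 pooled member calls remained, ADAMTS6 was lost (as with no filter and with upper-quartile scaling), member calls in the other comparisons did not change, and MMP15 in CS16 against WT went to 0.03. Signs turned only for differences that had not passed the test. Leaving out 1 library put MMP15 between -0.01 (without WT-3) and 0.82 in the pooled comparison, and in CS16 against WT it put MMP15 between -0.39 and 0.43 and RECK between -0.00 and 0.25, each turned without WT-2. SERPINE2 in CS19 against WT went to 0.02 with no filter and ranged from -0.10 to 0.07 (without CS19-1). Between the clones the ranges were -0.00 to 0.33 for ADAMTS10 (turned without CS16-3), -0.40 to 0.18 for MMP14 (without CS16-3 or CS19-3), -0.36 to 0.06 for PLAU (without CS16-3 or CS19-2) and -0.07 to 0.13 for TLL1 (without CS16-1, CS16-3, CS19-1 or CS19-3), which also went to -0.02 under upper-quartile scaling. The cause was not tested. Members with few counts, such as MMP28, gained a call where the filter was looser, and ADAMTS4 gained one in CS19 against WT with no filter or a fit shared by the 3 groups. Depth limits members under 3 counts per library, for which absence cannot be shown.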
